A study of Mus musculus with 2 samples.

Results

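Deadenylases are the nucleases that shorten the poly(A) tail of messenger RNAs, and 8 genes of this machinery were read on a pair of arrays of intestinal stem cells without or with the circular RNA circPan3. The set was made of 10 gene symbols: Pan3, the gene that hosts the circle, its partner Pan2, the CCR4-NOT subunit genes Cnot1, Cnot2, Cnot3, Cnot6, Cnot6l, Cnot7 and Cnot8, and Parn. A gene was read from a transcript cluster (the array's unit of measurement, with 1 value for the probes of a gene) that the platform annotation gives to that gene alone. This held for 8 of the 10 symbols, out of 19226 protein-coding genes with such a cluster. Cnot1 shares its cluster with the gene model Gm6158 and Cnot3 with the microRNA gene Mir3572, so no value is given under the name of either. Each of the 8 had exactly 1 cluster, and each passed the filter on low signal, a mean over both arrays no lower than the table's median, 2.53 on the log2 scale.

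The mutant cells were circPan3-/- and their controls circPan3+/+, both from 8-week-old mice that also carry Lgr5GFP-CreERT2, an allele named for a green fluorescent protein and a tamoxifen-inducible Cre recombinase under Lgr5, the receptor gene that marks crypt base stem cells. GFP-positive cells of the small intestine were sorted, and their total RNA was read on Clariom D mouse arrays of Affymetrix. There was 1 array per genotype, and the sources used here do not say whether its RNA came from 1 mouse or from several. No value below therefore has an error between replicates, no test was possible, and each difference compares these 2 arrays.

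Messenger RNAs lose their tails in steps. The PAN2-PAN3 complex, in which PAN2 is the nuclease and PAN3 the subunit that brings it to the poly(A)-binding protein, is known to trim long tails first. The CCR4-NOT complex, built on the large scaffold protein CNOT1, then removes the rest with a pair of nucleases of different families. After deadenylation the message is decapped and degraded, and the same complexes are brought to microRNA targets by the GW182 proteins. The length of the tail is one of the controls on how long a message lasts.

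Signals are given as deposited, on a log2 scale, and differences as circPan3-/- minus circPan3+/+. The circPan3-/- array read higher for most genes: over the 14205 protein-coding genes past the filter, called named genes here, the median difference was 0.35, with quartiles of 0.06 and 0.66, and 78.3% of them lay above 0. The shift grew with the level. As a limit for low signal, the 95th percentile of 5222 negative control rows was 5.56 in circPan3-/- and 5.06 in circPan3+/+ cells. Of the labelled cell type's markers, Lgr5 read 7.02 in circPan3-/- against 10.91 in circPan3+/+ cells and Olfm4 read 10.28 in circPan3-/- against 11.53 in circPan3+/+ cells, all above these limits and with both genes lower in circPan3-/- cells. Axin2 read 5.97 in circPan3-/- against 4.25 in circPan3+/+ cells, at least 1.88-fold higher. Smoc2, with 5.43 in circPan3-/- against 3.49 in circPan3+/+ cells, and Ascl2, with 4.83 in circPan3-/- against 3.95 in circPan3+/+ cells, also read higher but lay under the limits on both arrays. The epithelial markers Epcam, Cdh1, Vil1 and Krt8 were above the limits on both arrays.

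The sequences shown are the stretches just upstream of the 4 genes that have exactly 1 start window in the promoter table and a cluster of their own: the host gene, its partner in the complex, Cnot6 and Parn. They let the host gene's upstream stretch be seen beside those of other members. All are from RefSeq (GRCm38.p6), each is the 250 bases before the annotated start, and capitals mark a GC box (GGGCGG or, on the other strand, CCGCCC) or a CCAAT box (CCAAT or ATTGG), with no overlap between them. The windows are chr5:147429906-147430155 on the plus strand for Pan3, chr10:128303085-128303334 on the plus strand for Pan2, chr11:49712723-49712972 on the minus strand for Cnot6 and chr16:13668171-13668420 on the minus strand for Parn.
Pan3: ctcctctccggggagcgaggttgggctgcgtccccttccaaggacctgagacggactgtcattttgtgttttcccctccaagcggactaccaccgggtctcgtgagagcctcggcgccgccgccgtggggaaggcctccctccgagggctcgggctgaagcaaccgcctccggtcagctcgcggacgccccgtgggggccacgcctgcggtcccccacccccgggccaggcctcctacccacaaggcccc
Pan2: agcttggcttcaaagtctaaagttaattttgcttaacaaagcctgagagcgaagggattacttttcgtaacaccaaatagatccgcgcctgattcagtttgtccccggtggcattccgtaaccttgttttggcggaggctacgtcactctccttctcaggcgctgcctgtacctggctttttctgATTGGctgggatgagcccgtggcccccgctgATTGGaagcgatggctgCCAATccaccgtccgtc
Cnot6: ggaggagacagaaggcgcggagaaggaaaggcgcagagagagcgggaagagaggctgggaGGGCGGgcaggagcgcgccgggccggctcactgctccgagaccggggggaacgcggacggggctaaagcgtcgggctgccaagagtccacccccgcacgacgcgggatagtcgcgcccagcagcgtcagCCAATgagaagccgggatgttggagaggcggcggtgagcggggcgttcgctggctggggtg
Parn: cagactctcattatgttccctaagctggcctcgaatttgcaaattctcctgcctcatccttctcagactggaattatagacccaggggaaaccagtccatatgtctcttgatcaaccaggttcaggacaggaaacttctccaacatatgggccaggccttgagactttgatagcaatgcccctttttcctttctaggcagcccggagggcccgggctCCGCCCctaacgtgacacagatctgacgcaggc
The Pan3 window held neither box and was 71.2% G and C. Pan2 had 3 CCAAT boxes and no GC box at 52.4% G and C, Cnot6 had 1 of each at 70.8%, and Parn had 1 GC box at 52.0%. Over all 32851 windows of the same length, 32.7% held a GC box and 33.8% a CCAAT box, and the median share of G and C was 52.4%. These are descriptions of letters, and the array does not read the promoter.

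The host gene Pan3 read 5.64 in circPan3-/- cells, against 4.84 in circPan3+/+ cells, which puts it 0.80 higher in circPan3-/-. The circPan3-/- value was just above its control limit and the circPan3+/+ value was under its own, so the fold is a bound: at least 1.497-fold higher in circPan3-/- cells. The cluster gives 1 value for all its probes and none for the circle alone, so the deletion cannot be checked on it. Under each of the 4 scalings of the arrays that were tried, the difference of Pan3 was above 0. The shares of named genes that follow take the circPan3+/+ value of Pan3 as deposited, under the limit, so they are not measured ranks. Among named genes, 82.8% had a smaller difference than Pan3. Most of the distance from 0 was shared with genes of like level: the smoothed difference at the level of Pan3 was 0.48, which leaves 0.32, and on that scale 77.9% of named genes stood lower.

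Pan2, the gene of the nuclease that PAN3 recruits, read 5.03 in circPan3-/- against 4.42 in circPan3+/+ cells. Both lay under the control limits, so no fold is given for the difference of 0.62. Pan3 and Pan2, the 2 subunits of 1 complex, both read higher on the circPan3-/- array, but with 3 of their 4 values under a limit the gap between them is not given.

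Cnot6 and Cnot6l encode the CCR4-like nucleases of the CCR4-NOT complex, of the exonuclease-endonuclease-phosphatase family, and a complex holds one or the other. Cnot6 read 6.63 in circPan3-/- against 5.63 in circPan3+/+ cells, which is 1.00 or 2.01-fold higher. Cnot6l read 6.21 in circPan3-/- against 5.15 in circPan3+/+ cells, which is 1.06 or 2.08-fold higher. Both genes were above the control limits on both arrays, and their differences were only 0.05 apart. They were the 2 members at least 2-fold higher with a measured fold.

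Cnot7 and Cnot8 encode the CAF1 nucleases, of the DEDD family, which likewise replace each other in the complex. Cnot7 read 5.82 in circPan3-/- against 4.65 in circPan3+/+ cells, 1.17 higher as deposited. Its circPan3+/+ value was under the limit, so that difference is a bound of at least 1.69-fold. Cnot8 read 5.80 in circPan3-/- against 5.47 in circPan3+/+ cells, above the limits on both arrays, 0.33 or 1.26-fold higher. Cnot8 lay near the median of named genes: it stood at -0.03 once the median of named genes was subtracted and at -0.17 after the trend with level was removed.

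Cnot2, a subunit of the NOT module that holds no nuclease, read 6.81 in circPan3-/- against 6.03 in circPan3+/+ cells, 0.77 or 1.71-fold higher with both values above the limits. Parn encodes a nuclease separate from both complexes known from human cells for trimming the 3′ ends of small nucleolar RNAs and of telomerase RNA. It read 4.88 in circPan3-/- against 3.75 in circPan3+/+ cells, both under the limits, and its difference of 1.14 is given with no fold. Because both signals are within the range of the controls, Parn has no place in an order of the 8.

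**Figure D1:**
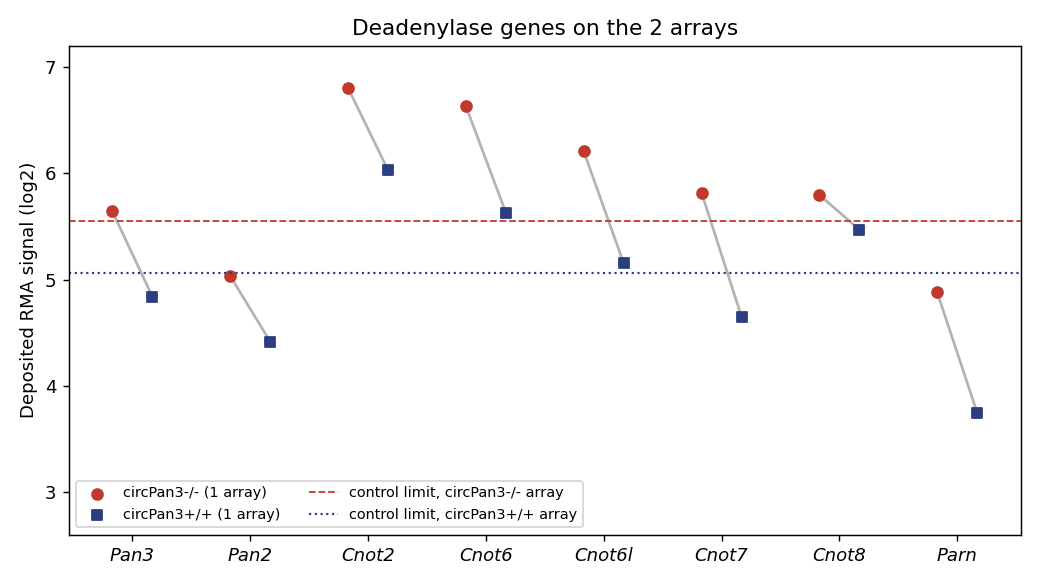
Deposited log2 signal of the 8 genes, with the circPan3-/- array as circles and the circPan3+/+ array as squares (1 array each), joined by a line per gene. Dashed and dotted lines mark the control limits, 5.56 for circPan3-/- and 5.06 for circPan3+/+. Every gene is higher on the circPan3-/- array, as are 78.3% of the protein-coding genes past the filter. Pan2 and Parn are under the limits on both arrays.

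As a set, the 8 genes had a median difference of 0.90, against 0.35 for named genes, and ran from 0.33 to 1.17. As deposited, 4 of the 8 were at least 2-fold higher (Cnot7, Parn, Cnot6l and Cnot6) in circPan3-/- cells, as were 9.71% of named genes. None was at least 2-fold lower, against 2.77% of named genes. When a value under its limit was allowed to give no more than a bound, 2 of the 8 met the rule as higher (Cnot6 and Cnot6l), against 3.51% of named genes, and 0 as lower, against 0.549%. Among the 4 members above the limits on both arrays 2 were at least 2-fold higher, against 13.9% of named genes above the limits, and 0 lower, against 1.57%. At 1.5-fold, 7 of the 8 were higher as deposited, all but Cnot8, against 30.3% of named genes, and 0 lower, against 5.55%. Among these 7, Pan2 and Parn have no fold, and the bound of Pan3, 1.497-fold, falls short of 1.5-fold. Cnot6, at 2.01-fold, was just inside the threshold. Next below it as deposited were Pan3 at 0.80 and Cnot2 at 0.77. The fold of Pan3 is only a bound, so its side of the threshold is not settled.

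Genes as bright as the members shifted further than named genes as a whole: over the 6193 named genes with a mean level between 4.31 and 6.42, the span of the 8, the median difference was 0.45 and the quartiles 0.13 and 0.77, with 12.4% at least 2-fold higher and 2.81% lower. Of the 8 members, 6 lay above that upper quartile. After subtraction of the median of named genes the members' median was 0.55, and after removal of the trend with level it was 0.40. On both scales 0 of the 8 reached 2-fold in either direction and 7 of the 8 lay above 0, all but Cnot8. Subtraction of the median leaves as many named genes above 0 as below it by construction. The share above 0 after removal of the trend was not computed. Pan3, Pan2, Cnot7 and Parn rest on values under a limit, so the sign of what remains for them is not secure. The background moved with the members. As deposited, 1379 named genes passed 2-fold upward and 393 downward. After subtraction of the median these were 553 (3.89%) and 707 (4.98%), after loess 481 (3.39%) and 712 (5.01%), and after quantile normalization, where 0 of the 8 reached 2-fold either, 612 (4.31%) and 637 (4.48%).

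**Figure D2:**
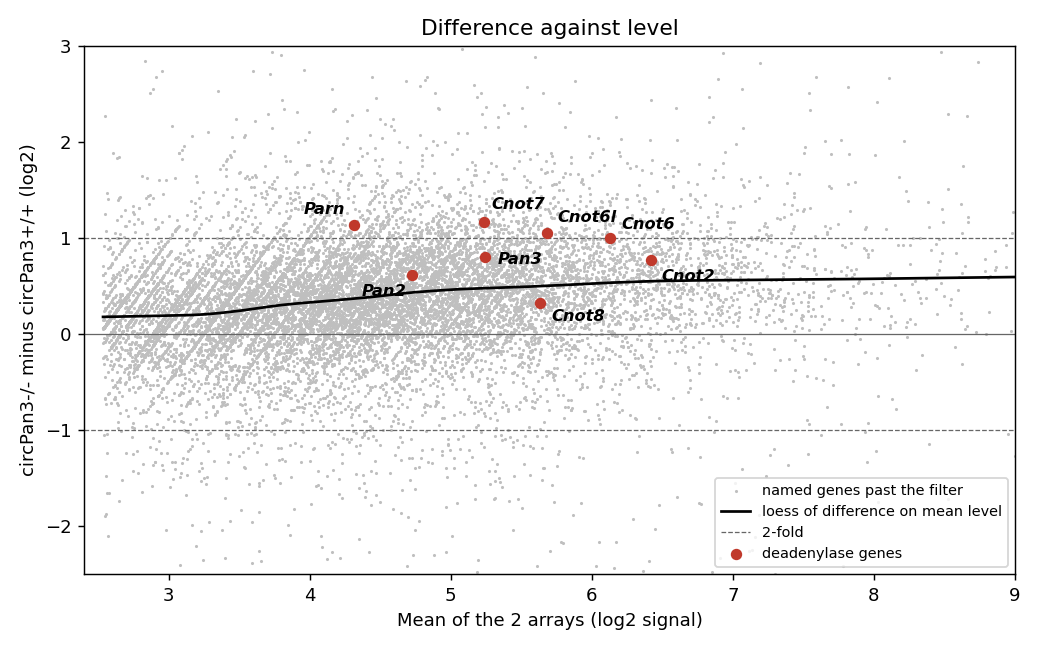
Difference between the arrays (circPan3-/- minus circPan3+/+, log2) against the mean of both arrays for named genes (grey), with the loess curve (black) and the 8 deadenylase genes (red, labelled); dashed lines mark 2-fold. The axes leave out 141 named genes at the extremes. The curve climbs with level, and of the red points Cnot8 alone is below it; genes that share a circPan3+/+ value line up as slanted stripes.

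The host gene was then set against the other subunits. Among the 4 members measured above the limits on both arrays, the differences were 1.06 for Cnot6l, 1.00 for Cnot6, 0.77 for Cnot2 and 0.33 for Cnot8. Pan3, at 0.80 as deposited and at least 0.58 by its bound, was above Cnot8 either way, and the bound does not place it against the other 3. As deposited, Pan3 was 0.20 under the median of the other 7, which was 1.00, and after the trend with level was removed it was 0.15 under it. Those medians include Cnot7, Pan2 and Parn, which have values under a limit as Pan3 does, so neither gap is a measured one. No order among the 8 can be tested with 1 array per genotype.

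**Figure D3:**
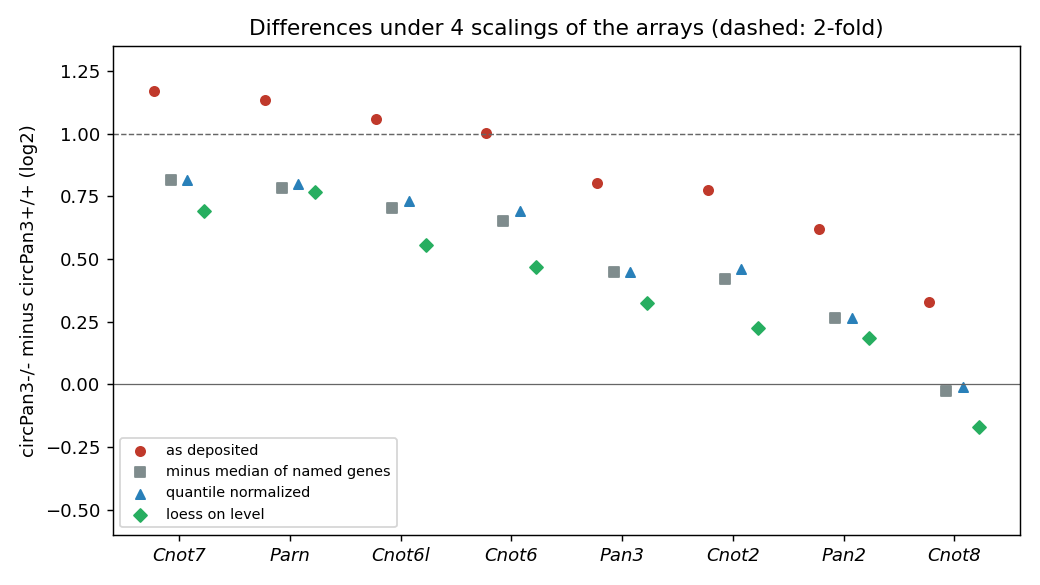
Differences (circPan3-/- minus circPan3+/+, log2) of the 8 genes, ordered by the deposited value, under 4 scalings of the arrays; the dashed line marks 2-fold higher. As deposited 4 genes reach the line, under the other scalings none does, and the deposited and rescaled values of Pan3 lie between those of Cnot8 and Cnot6l under all 4. The values of Cnot7, Parn, Pan3 and Pan2 rest on 1 or 2 signals under a control limit.

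The deposited columns also differed in how often a value recurs, which touches 3 of the 8 genes. Rows whose exact value recurs elsewhere in the column made up 4.20% of the circPan3-/- column and 69.1% of the circPan3+/+ column. On the circPan3+/+ array 143 rows carried the same value as Pan3, 117 that of Pan2 and 510 that of Parn, each count including the gene itself. The other 5 genes had a circPan3+/+ value of their own, and all 8 had a circPan3-/- value of their own. Cnot2, Cnot6, Cnot6l and Cnot8, which were above the limits and shared no value, had a median difference of 0.89. What the recurring values have to do with the differences was not tested.

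The named genes whose pair of values lay nearest to that of Pan3 over the 2 arrays were Tmem94, Eps15l1 and Glrx5. Tmem94 read 5.64 in circPan3-/- against 4.84 in circPan3+/+ cells, and differed by 0.80 as Pan3 did. Eps15l1 shared that circPan3+/+ value and also differed by 0.80, while Glrx5 differed by 0.81. The circPan3+/+ values of these 3 genes, like that of Pan3, were under the limit of 5.06, so the differences are not measured folds. The circPan3+/+ value that Tmem94 and Eps15l1 share with Pan3 is the one carried by 143 rows. A pair of arrays gives 2 numbers per gene, and the likeness was taken over those alone.

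The rest of the decay pathway was read from 8 lists that leave out the 10 symbols above. Of 71 genes listed, 64 had a cluster of their own and passed the filter, and their median difference was 0.51. At least 2-fold higher were 5 of them, or 7.81%, against 9.71% of named genes, and 0 were at least 2-fold lower, against 2.77%. Counts as deposited in the single lists below can be read against the same shares. After removal of the trend with level none was 2-fold apart, against 3.39% of named genes higher and 5.01% lower. The median on that scale was 0.14, against 0.40 for the 8 deadenylase genes. Both values were under the control limits for 41 of the 64. The highest and lowest gene of a list are named by the deposited difference, whether or not the values passed the limits.

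The other CCR4-NOT subunits, none of them a nuclease, had a median of 0.62 over 4 genes, none at least 2-fold apart. Cnot9, a subunit that binds the GW182 proteins, was highest at 0.97, with 5.87 in circPan3-/- against 4.90 in circPan3+/+ cells (at least 1.75-fold), and Cnot4, a ubiquitin ligase gene, was lowest at 0.47. The BTG and TOB adaptors, which bind the CAF1 nucleases, had a median of 0.72 over 5 genes. Btg3 stood at 1.03 with no fold, since both values were under the limits, and Tob2 was lowest at -0.03.

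Poly(A)-binding proteins and their partners had the highest median of the 8 lists, 0.81 over 6 genes, with 2 at least 2-fold higher as deposited, against 9.71% of named genes, and 0 after removal of the trend with level. Pabpc1, the main cytoplasmic protein on the tail and the docking site of PAN3, read 9.69 in circPan3-/- against 8.66 in circPan3+/+ cells, 1.03 or 2.04-fold higher. Pabpc4, a relative of it, read 6.70 in circPan3-/- against 5.56 in circPan3+/+ cells, 1.13 or 2.19-fold higher. Both were above the control limits on both arrays; whether retrocopies of Pabpc1 share its probes was not tested. Paip2, an inhibitor of the poly(A)-binding protein, was lowest at 0.37. After removal of the trend with level Pabpc1 stood at 0.43 and Pabpc4 at 0.60.

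The enzymes that lengthen or modify tails had a median of 0.76 over 11 genes. Mtpap, the mitochondrial poly(A) polymerase gene, was highest at 1.06 with no fold, and Tent5b was lowest at 0.03. Exosome and SKI complex genes, whose products degrade RNA from the 3′ end, had a median of 0.65 over 13 genes. Exosc8 was highest at 1.01 with no fold, and Exosc1 was lowest at -0.07.

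Decapping and 5′ decay genes had a median of 0.48 over 15 genes, none at least 2-fold apart. Ddx6, the helicase gene that links CCR4-NOT to decapping, was highest with 7.37 in circPan3-/- against 6.51 in circPan3+/+ cells, 0.87 or 1.82-fold higher, and Lsm2 was lowest at -0.01. The other deadenylases and their relatives had a median of 0.42 over 4 genes, all under the limits on both arrays, from Noct at 0.02 to Angel1 at 0.52.

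The microRNA effector genes had the lowest median, 0.21 over 6 genes, and none was at least 2-fold apart. They encode the Argonaute proteins and the GW182 proteins that bring deadenylases to microRNA targets. Tnrc6c was highest at 0.42 and Ago4 lowest at -0.22, both with no fold. Ago2, the only one of the 6 above the limits on both arrays, read 6.41 in circPan3-/- against 6.04 in circPan3+/+ cells, 0.37 or 1.29-fold higher. The median of this list was below 0, at -0.14, once the median of named genes was subtracted.

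**Figure D4:**
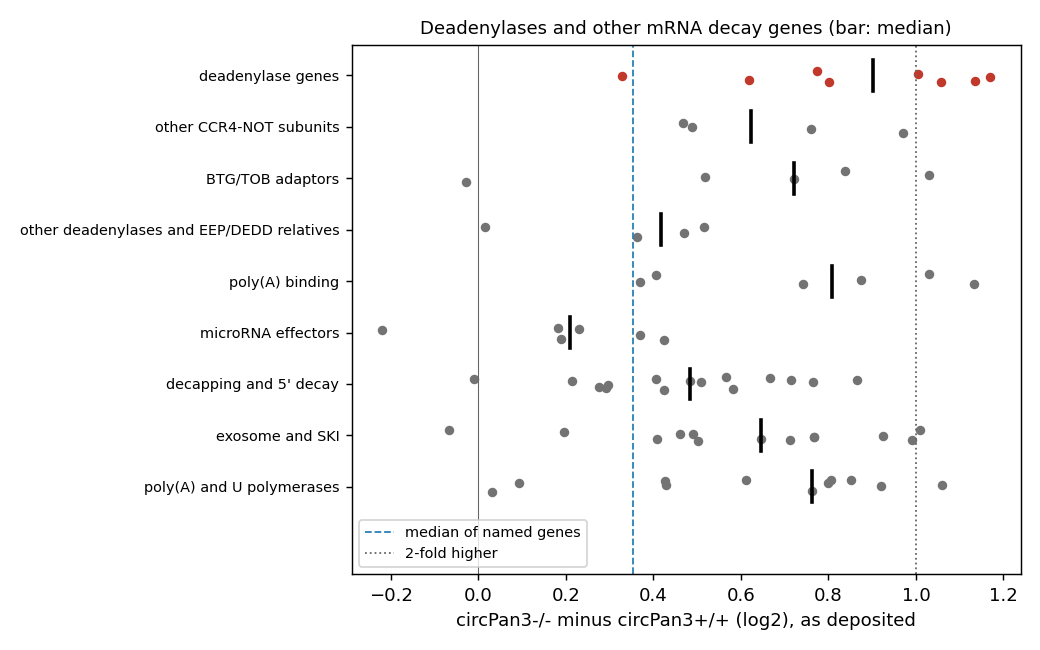
Differences (circPan3-/- minus circPan3+/+, log2, as deposited) of the 8 deadenylase genes (red) and of the 8 other lists (grey), 1 point per gene, with a bar at each median; the vertical lines mark 0, the median of named genes at 0.35 and 2-fold higher. The red bar at 0.90 is the furthest right and that of the microRNA effectors, at 0.21, the furthest left.

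Markers of other cells moved with the comparison. Shares of markers at least 2-fold apart can be read against the 9.71% of named genes that were higher and the 2.77% that were lower. The summed signal (log2 of the sum of linear signals) of the 5 stem cell markers was 10.56 in circPan3-/- and 12.27 in circPan3+/+ cells, with 2 at least 2-fold higher and 2 lower. That of the 4 epithelial markers was 11.63 in circPan3-/- against 10.75 in circPan3+/+ cells, with 2 higher and 0 lower. The 3 Paneth cell markers summed to 12.15 in circPan3-/- against 10.38 in circPan3+/+ cells, and the 2 goblet cell markers with a cluster of their own to 10.64 in circPan3-/- against 8.32 in circPan3+/+ cells, with all 3 and both of them higher.

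Markers of leukocytes, endothelium and mesenchyme went lower or differed little. Of the 4 leukocyte markers 2 were at least 2-fold lower as deposited, S100a8 at -3.93 and Cd68 at -2.76. As bounds these are at least 1.23-fold lower for S100a8 and at least 2.66-fold lower for Cd68. Ptprc stood at -0.18 and Cd3e at -0.11. Of the 2 endothelial markers Emcn stood at -2.88, a bound of at least 2.34-fold lower, and Pecam1 at -0.19. Of the 2 mesenchymal ones Vim stood at -1.75 and Col1a1 at 0.01. The summed signals were 6.57 in circPan3-/- against 8.04 in circPan3+/+ cells for leukocytes, 5.89 in circPan3-/- against 7.33 in circPan3+/+ cells for endothelium, and 7.43 in circPan3-/- against 8.997 in circPan3+/+ cells for mesenchyme. All leukocyte and endothelial markers were under the limit in circPan3-/- cells, so each single signal behind those sums is within the range of the controls there. Cd3e and Col1a1 were under the limits on both arrays. The part of such cells in the differences of the deadenylase genes was not tested, and in sorted bulk RNA fewer cells of a type and less RNA per cell cannot be told apart.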

How the data were processed

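The authors deposited 1 log2 signal per transcript cluster and array, made with Affymetrix Power Tools and RMA, per the submitters' processing notes. The sources used here give neither their versions nor a genome build. The log2 base was taken from the range of the values, -0.18 to 13.07. Of 72688 rows, 31258 carried 1 symbol after updating through Entrez identifiers and synonyms of the RefSeq table (GRCm38.p6), 1492 carried several and were not named, and 33206 clusters carried none. A symbol was read from its brightest row. Differences, medians and counts were computed with pandas 2.3.3 and the loess trend (span 0.3) with statsmodels 0.14.6, and the functions were tested on simulated data. With 1 array per genotype there was no test. Where the dimmer value lay under its control limit, the fold was taken to that limit. The number of arrays limits the precision. Named in the text are all members, the highest and lowest gene of each other list, those at least 2-fold apart, the 3 nearest to Pan3 and cell type markers. Ago2 was chosen after its values were seen. The members, lists and limit were chosen with earlier results of these data known. Skiv2l, Ttc37 and Wdr61 were matched to their newer symbols by hand.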

Additional observations from a re-analysis of the deposited data

How the results depend on the processing

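The differences of the deadenylase genes other than Cnot8 kept their direction but not their size when the arrays were rescaled. The difference of Pan3 was 0.80 as deposited, 0.45 after subtraction of the median of named genes, 0.32 after loess, 0.45 after quantile normalization and 0.61 after subtraction of the median of all rows. The members' median of 0.90 was 0.55, 0.40, 0.57 and 0.72 in the same order, and 0.89 over the members above the limits on both arrays. The 4 members at least 2-fold higher became 0 under each of these 4 scalings. At 1.5-fold the count was 7 as deposited and 4, 2, 4 and 6 under the 4 scalings in that order. The share of named genes at 1.5-fold was computed only as deposited. With bounds the 2-fold count was 2 at the control limit, against 3.51% of named genes, and 3 at the 90th percentile of negative controls. The share of named genes with bounds was computed at the control limit alone. With bounds at the 99th percentile the count was 0 by construction. No member reaches those limits of 8.14 in circPan3-/- and 8.07 in circPan3+/+ cells. As deposited, and with the clusters shared by Cnot1 and Cnot3 added, the count was 5 of 10. The 9.71% of named genes at least 2-fold higher as deposited leaves out such shared clusters. Pan3 minus the median of the others, -0.20, was -0.15 after loess and -0.24 after quantile normalization. The share of named genes at least 2-fold higher was 3.89% after subtraction of the median, 3.39% after loess and 4.31% after quantile normalization, and that at least 2-fold lower 4.98%, 5.01% and 4.48%, or 1.57% among genes above the limits. The median of the other decay genes, 0.51, was 0.50 without a filter, 0.57 with one at the upper quartile, and 0.15, 0.14 and 0.20 under those 3 scalings. Under the same 3 scalings Cnot8 reversed to -0.025, -0.17 and -0.011, and the microRNA effector list to -0.14, -0.16 and -0.12. These scalings remove the shift between the arrays by construction. The median difference was 0.27 in negative control rows, 0.57 in positive control rows and 0.11 in ERCC control rows, against 0.35 in named genes. Whether the shift is technical was not tested. The shared clusters, whose inclusion was chosen after seeing the data like the restriction to genes above the limits, left the median at 0.90. No paired analysis was possible because there is 1 array per genotype, and no replicate could be left out.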
